A study of Mus musculus with 2 samples.

Results

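Wide open regions are stretches of accessible chromatin where DNase-seq found peaks in both libraries of mouse hippocampal tissue. Their joined peaks span at least 500 bp, but the part found in both libraries is often shorter. They were chosen by measured width: overlapping peaks of the libraries (1 bp or more) were joined, and autosomal regions whose union reached 500 bp were kept. The rule gave 2162 wide regions among 36132 autosomal shared regions, which is 5.98% of the regions and 14.7% of the bases they cover. They are set against the 33970 narrower shared regions.

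The series holds 2 libraries of 1 group, biological replicates 1 and 2, from female B6CASTF1/J mice (F1 hybrids of a C57BL/6 and a CAST strain) aged 25 days. The tissue type is given as a layer of hippocampus, the layer is not named, and no treatment is recorded. Both libraries carry the same donor entry, so their spread may be partly technical. There is no second group: values describe these 2 libraries, and no difference was tested. The strict peak list held 61466 peaks in replicate 1 (median width 180 bp) and 50379 in replicate 2 (median width 200 bp), and the sequencing depth is unknown.

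DNase I cuts chromatin where nucleosomes leave the DNA exposed, so a peak marks DNA that is open in at least some of the cells. Most mammalian promoters lie in CpG islands, stretches rich in unmethylated CG dinucleotides, where nucleosomes are depleted around the transcription start. Enhancers and insulators (sites bound by CTCF, a factor that shapes chromatin loops) usually appear as narrower openings. Where a bound protein shields its site from the enzyme, a short protected gap remains inside the opening, called a footprint.

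Most wide regions lay at gene starts in CpG-rich DNA, and 3 stretches show what that looks like. The first is from the widest promoter region, at Myc (a growth-promoting transcription factor), chr15:61986794-61987033. The second is from the widest promoter region of the activity-regulated genes, at Klf4 (a zinc finger factor), chr4:55532761-55533000. The third is from the widest region away from any start, in an exon of Pcdh17 (a protocadherin, a cell adhesion protein), chr14:84446095-84446334. Each is RefSeq sequence of GRCm38.p6 (the build mm10), plus strand, 5′ to 3′, with every CG in capitals. The 240 bases held 17 CG at Myc, 31 at Klf4 and 16 at Pcdh17. Stretches were taken outside annotated untranslated parts of transcripts, and those at Myc and Pcdh17 lie off the middle of their regions. They had 60.8% GC at Myc and 62.5% at Pcdh17, while the central 200 bp of these regions had 56.5% and 50%.
Myc: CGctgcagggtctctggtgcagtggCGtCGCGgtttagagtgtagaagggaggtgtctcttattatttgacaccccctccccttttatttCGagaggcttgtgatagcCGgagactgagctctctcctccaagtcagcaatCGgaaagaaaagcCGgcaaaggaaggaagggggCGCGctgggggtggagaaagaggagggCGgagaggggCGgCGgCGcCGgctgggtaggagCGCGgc
Klf4: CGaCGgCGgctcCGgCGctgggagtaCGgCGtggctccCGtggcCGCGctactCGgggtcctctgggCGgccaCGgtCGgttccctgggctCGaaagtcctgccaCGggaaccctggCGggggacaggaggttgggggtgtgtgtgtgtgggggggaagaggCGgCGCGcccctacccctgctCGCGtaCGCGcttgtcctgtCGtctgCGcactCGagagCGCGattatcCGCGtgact
Pcdh17: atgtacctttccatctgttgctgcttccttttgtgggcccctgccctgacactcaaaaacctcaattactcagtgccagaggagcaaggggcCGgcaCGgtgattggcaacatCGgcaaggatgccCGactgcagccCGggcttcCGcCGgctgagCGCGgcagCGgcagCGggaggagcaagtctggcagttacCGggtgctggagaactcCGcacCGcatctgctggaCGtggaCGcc

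The wide regions had a median width of 600 bp, with quartiles of 540 and 712.5 bp, against 220 bp in the narrow regions. Only 107 reached 1000 bp, and the widest had 1876 bp. A single peak of 500 bp or more lay in 1607 of the 2162, and the other 555 became wide only by joining shorter peaks. The regions held 1 peak per library in 716 cases, 3 peaks in 748 and 4 or more in 698, with at most 9.

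The 2 libraries saw different parts of these regions. Peaks of replicate 1 covered a median of 500 bp and peaks of replicate 2 a median of 520 bp, but the bases inside peaks of both came to a median of 364.5 bp. That shared part was a median of 58.5% of the union in wide regions and 76.1% in narrow regions. Replicate 1 on its own covered 500 bp or more in 1097 of them, replicate 2 in 1356, and both did in 590. Only 241 shared regions held an unbroken run of 500 bp or more inside peaks of both libraries. Regions built from 1 library alone gave a region of 500 bp or more over 717 of the 2162 (33.2%) in replicate 1 and over 1222 (56.5%) in replicate 2. The width of a single member is therefore uncertain.

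The threshold cut through a continuous range of widths. There were 253 regions of at least 500 but under 520 bp, and 333 of at least 480 but under 500 bp. Just inside it, 194 regions had exactly 500 bp. By mean signal rank, the first 3 were the promoters of Akt1s1 and Tbc1d17, of the heat shock cognate gene Hspa8 and of 1700064H15Rik. Just outside the threshold were the promoters of Rapgef2 and Sppl3 (499 bp each) and of Rtn1 (498 bp). The band just above 500 bp had a median signal of 2.20 in replicate 1 and 1.14 in replicate 2, and the band just below had 1.95 and 1.03. Promoters made up 77.1% of the upper band and 77.8% of the lower one.

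Of the 2162 wide regions, 1750 (80.9%) had an annotated start (of a coding gene or a long noncoding RNA) within 500 bp, against 38.4% of the narrow regions. A further 81 (3.75%) touched an exon, 145 (6.71%) lay in an intron and 186 (8.60%) were intergenic, whereas narrow regions lay in those places in 5.61%, 26.2% and 29.8% of cases. A longer region meets a start more easily. When the middle of the region had to lie within 500 bp of a start, the shares were 74.1% of wide and 36.7% of narrow regions. Of the 1750 wide promoter regions, 1676 lay at a protein-coding start and 74 at starts of long noncoding RNA genes only. Starts on both strands lay near the middle in 19.3% of wide and 16.0% of narrow promoter regions. From 150 bp upwards the promoter share was higher in each wider band, from 10.5% at 150 to 200 bp to 90.7% at 1000 bp or more.

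**Figure D1:**
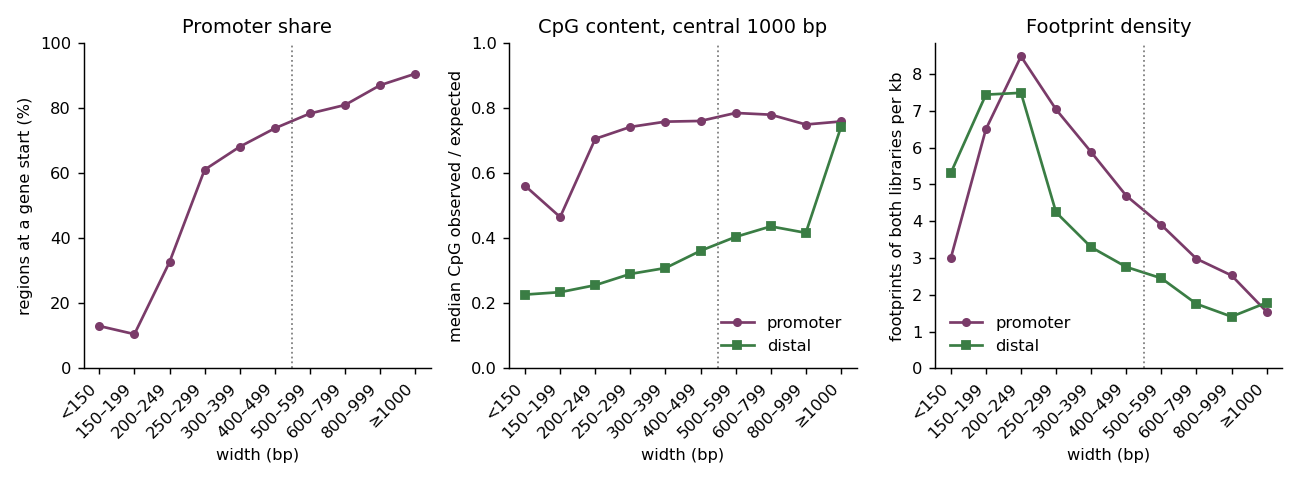
Promoter share (left, percent of regions with a start within 500 bp), median CpG observed to expected ratio in the central 1000 bp (middle) and footprints of both libraries per kb (right), by width of the shared region in bp. Circles are promoter regions, squares are distal regions, and the dotted line marks 500 bp. The promoter share reaches 90.7% at 1000 bp or more, where the distal points rest on 10 regions, while footprints per kb at promoters go down to 1.54 there.

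Wide regions were richer in CpG than narrow ones, by more over all regions than among promoters alone. The CpG observed to expected ratio compares the number of CG pairs with that expected from the C and G content. In the central 1000 bp it had a median of 0.743 in wide and 0.362 in narrow regions. Within promoters the medians were closer, at 0.778 in wide and 0.728 in narrow regions. Away from promoters they were 0.431 in wide and 0.254 in narrow regions. GC content in the central 200 bp followed the same order, with a median of 64.0% against 54.5% over all regions, 65.5% against 64.5% at promoters and 54.0% against 51.0% at distal regions.

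A region was called CpG-dense when its central 500 bp had at least 50% GC and a ratio of at least 0.6. That held for 84.6% of wide and 74.8% of narrow promoter regions. Among distal regions it held for 134 of 412 wide ones (32.5%) and for 5.62% of narrow ones. The 500 bp window reached beyond every narrow region, and the 1000 bp window of the CpG ratio beyond all but 107 wide regions. These values therefore include flanking sequence, and more of it in narrow regions. The CpG-rich run around the middle of a promoter region had a median length of 800 bp in wide and 660 bp in narrow regions. It was longer than the open region itself in 57.9% of wide and 73.1% of narrow promoter regions. Only 2 wide regions were repeats over at least 50% of their length, 0.093% of them, against 1.32% of the narrow regions.

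Wide regions were broad without being the most accessible. The deposited peak signal has an unstated scale and is compared here only within a library, by the highest peak of each region. In replicate 1 its median was 1.86 in wide and 2.6 in narrow regions. In replicate 2 the medians were nearly equal, at 0.990 in wide and 0.998 in narrow regions, and their order turned with small changes in how regions were built. Among promoters the gap was larger and lay the same way in both libraries, at 2.11 in wide and 3.64 in narrow regions in replicate 1, and 1.06 in wide and 1.5 in narrow regions in replicate 2. In replicate 1 distal wide regions had 1.29 and distal narrow ones 2.03, and in replicate 2 they had 0.855 and 0.863. The distal gap in replicate 1 was not seen next to the threshold. Distal regions of 400 to under 500 bp had 1.19 in replicate 1 and 0.833 in replicate 2. Those of 500 to under 600 bp had 1.30 and 0.878. The highest distal medians of replicate 1 were 2.38 at 150 to under 200 bp and 2.79 at 200 to under 250 bp.

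**Figure D2:**
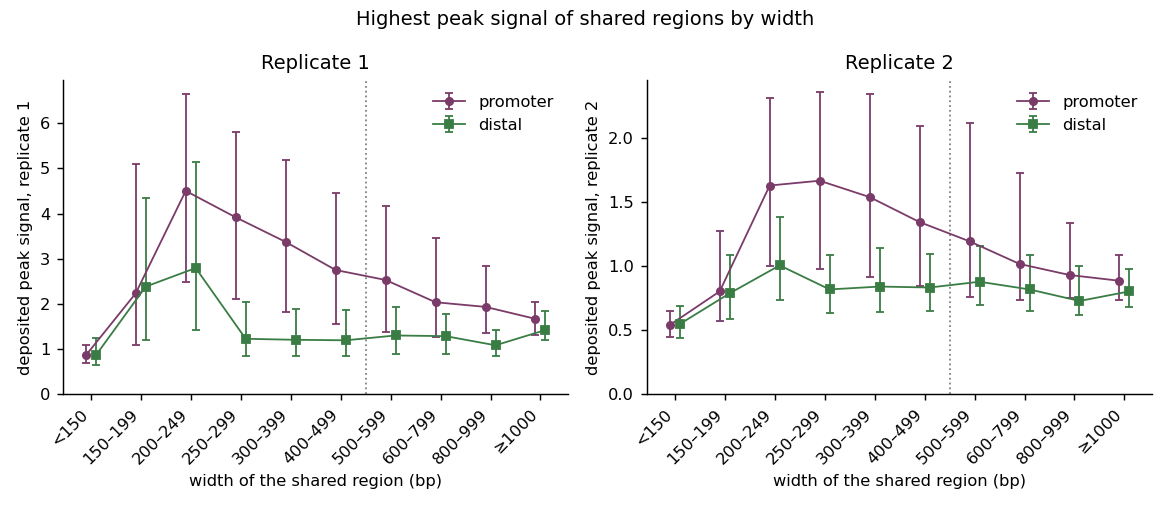
Highest deposited peak signal of a shared region (vertical axis, scale as deposited) by width of the region in bp, for replicate 1 (left) and replicate 2 (right). Points are medians and bars the quartiles of promoter (circles) and distal (squares) regions, and the dotted line marks 500 bp. Promoter medians are 4.50 at 200 to 249 bp and 1.67 at 1000 bp or more in replicate 1, and 1.63 and 0.885 in replicate 2.

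By the mean rank of the signals of both libraries, the first 5 were the promoters of Rab40c, Hspa2, Rab8a, Tmpo and Hip1. Rab40c, a small GTPase gene, had a signal of 16.1 in replicate 1 and 4.91 in replicate 2 over 620 bp. The others had 12.3 and 4.38 (Hspa2, a heat shock protein), 13 and 4 (Rab8a, a GTPase of vesicle traffic), 14.6 and 3.66 (Tmpo, a nuclear lamina protein) and 10.5 and 4.58 (Hip1, an endocytic protein that binds huntingtin). All 5 were between 520 and 620 bp wide, and all held 6 to 9 footprints found in both libraries. When all promoter regions were ranked by signal and cut into 4 equal groups, 6.02% of the highest group were wide and 17.6% of the lowest.

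The 12 widest promoter regions were those of Myc, Ecpas, Adgrl3, Htr1a, Pcdh7, Fgf14, Dennd5b, Mdga2, Epha6, Egfem1, Lin7a and Nkain2, between 1480 and 1876 bp. Among them were receptors (Htr1a, the serotonin 1A receptor; Epha6, an ephrin receptor; Adgrl3, a latrophilin), adhesion proteins (Pcdh7; Mdga2, which binds neuroligins), Fgf14, an intracellular partner of sodium channels, and Lin7a, a synaptic scaffold. The names were chosen by width, so this is a description of the extreme and not a test of a class.

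At Myc the region was chr15:61986541-61988416. Its signal was 1.61 in replicate 1 and 0.825 in replicate 2. Peaks of replicate 2 covered all 1876 bp, while those of replicate 1 covered 1040 bp in 2 separate blocks.
At Htr1a, chr13:105443557-105445320, 1764 bp, the signal was 1.01 in replicate 1 and 0.668 in replicate 2. The region began at position -82 and ran to 1681 relative to the start, almost wholly inside the gene. At Fgf14, chr14:124675261-124676925, the whole region of 1665 bp lay downstream of the nearest annotated start, from position 202 on, with signals of 0.934 in replicate 1 and 0.810 in replicate 2. Ecpas (a proteasome adaptor) had the most GC-rich centre of the 12, at 84.5% GC over 200 bp with a CpG ratio of 1.02. All 12 had signals below the medians of narrow promoter regions in both libraries, and each held between 0 and 5 footprints found in both.

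**Figure D3:**
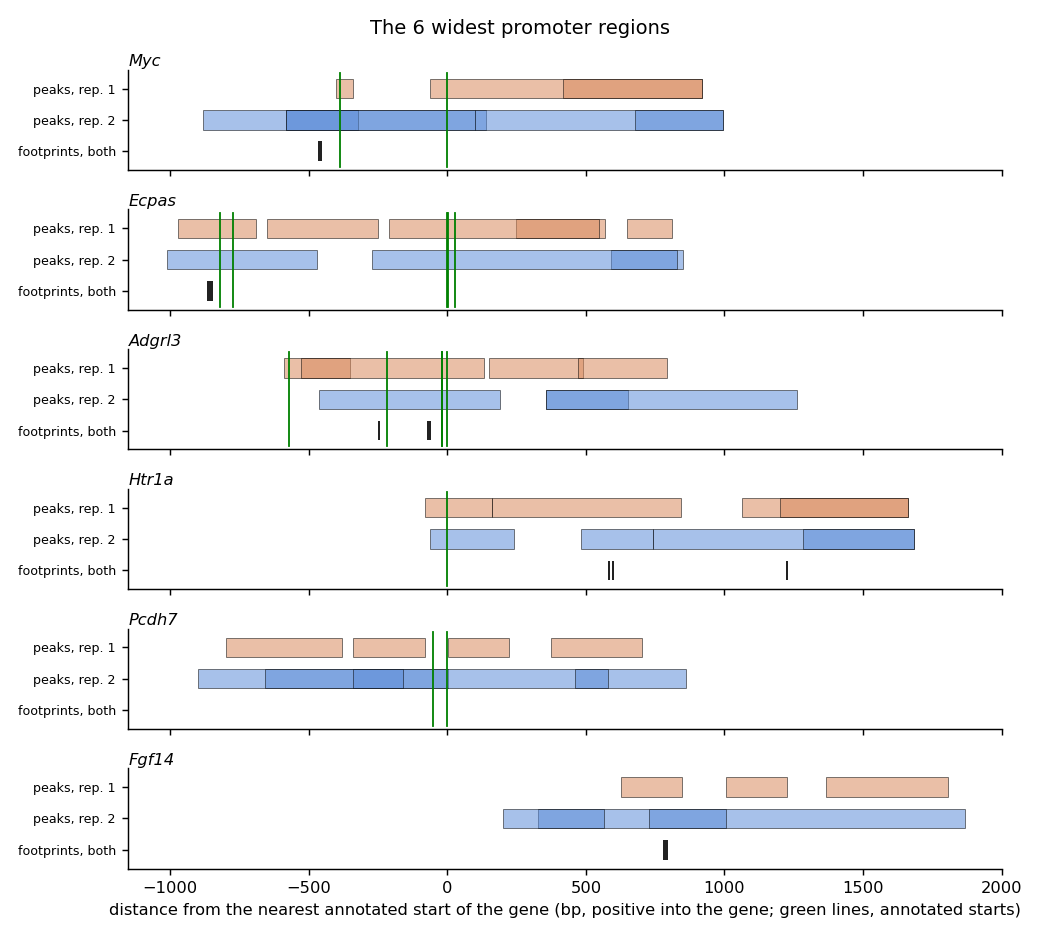
Peaks of replicate 1 (orange), peaks of replicate 2 (blue) and footprints found in both libraries (black) in the 6 widest promoter regions, by distance in bp from the annotated start nearest the middle of the region, positive into the gene. Green lines are annotated starts inside the region and darker stretches are overlapping peaks. At Myc the peaks of replicate 2 cover 1876 bp without a gap and those of replicate 1 cover 1040 bp, and the Fgf14 region lies wholly inside the gene.

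The wide regions extended in both directions from the start, and further into the gene. This was measured in 1203 wide and 9432 narrow promoter regions with protein-coding starts on 1 strand only within 1000 bp, from the start nearest the middle of the region. The median upstream edge lay at -303 bp in wide and -160 bp in narrow regions. The median downstream edge lay at 343 bp in wide and 104 bp in narrow regions. The middle of the region was downstream of the start in 54.8% of wide and 33.6% of narrow regions, with medians of 23.5 bp and -25.5 bp. More than 500 bp of the gene downstream was reached by 27.6% of wide and 7.05% of narrow regions, and more than 500 bp upstream by 20.2% of wide and 4.34% of narrow regions.

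**Figure D4:**
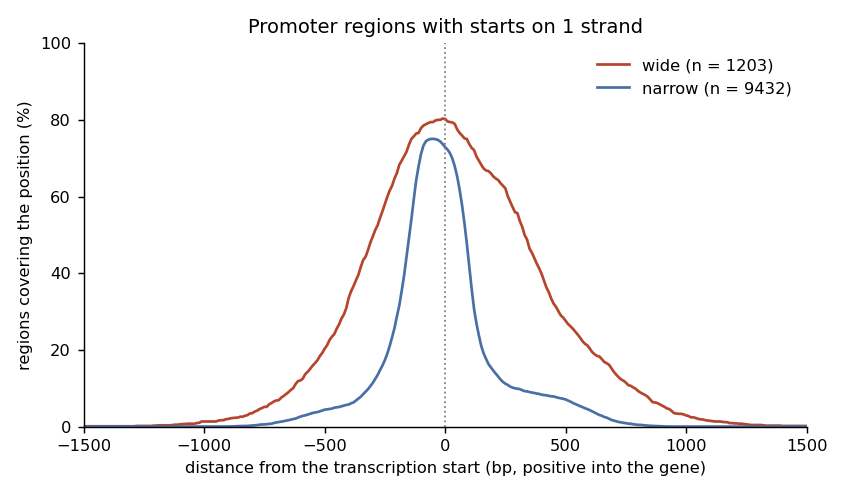
Share of promoter regions that cover each position (vertical axis, percent) by distance from the transcription start in bp, positive into the gene, for 1203 wide (red) and 9432 narrow (blue) regions with starts on 1 strand. At the start itself 80.3% of wide and 72.9% of narrow regions are open, and the wide curve falls off more slowly on the right, with 27.6% still open at 500 bp.

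Footprints were sparser per kb in wide regions. At least 1 footprint found in both libraries (overlap of 50% of the shorter) lay in 69.2% of wide and 79.9% of narrow regions. The order of these shares was the opposite within groups of promoters cut by signal, as given with the signal groups. It also turned when regions and footprints came from replicate 2 alone, with 91.9% of wide and 82.7% of narrow regions. Pooled over all sequence, the density was 2.91 per kb in wide and 6.39 per kb in narrow regions. Each library on its own gave the same order, with 9.13 per kb in wide against 14.2 in narrow regions in replicate 1, and 7.83 against 11.0 in replicate 2. Counting only sequence inside peaks of both libraries, it was 4.25 per kb in wide and 8.33 per kb in narrow regions.

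Footprint calls depend on how many cuts a region received, and signal was lower at wide promoters. Promoter regions were therefore also compared within the 4 groups of equal size by mean signal rank. In the lowest group the density was 0.874 per kb in wide and 1.46 per kb in narrow regions, and in the highest it was 8.76 per kb in wide and 11.7 per kb in narrow regions. The middle groups gave 2.53 against 4.42 and 5.47 against 7.86 per kb, so wide promoters had fewer footprints per kb in each of the 4. The share of promoter regions with at least 1 footprint lay the other way in all 4 groups: from the lowest to the highest signal it was 37.6% of wide and 32.3% of narrow regions, 80.0% and 76.6%, 98.4% and 95.0%, and 100% and 99.3%. A wide region also holds more sequence in which a footprint can lie: median widths in the lowest group were 620 and 269 bp. Signal was not fully matched within groups. In the highest the medians were 6.40 in wide and 7.10 in narrow regions in replicate 1, and 3.02 and 2.72 in replicate 2. Within sequence open in both libraries the highest group gave 10.8 per kb in wide and 13.3 per kb in narrow regions. The numbers of cuts behind these calls were not used here, and the part of depth in the remaining difference was not tested.

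Of 23 short motifs sought, several of common promoter factors were also less frequent at the centre of wide promoters. Sought as exact letters on both strands in the central 200 bp, the CCAAT box (CCAAT, bound by NF-Y) was in 19.0% of wide and 30.0% of narrow promoter regions. The ETS motif (CCGGAAG, bound by factors such as GABPA) was in 6.74% of wide and 13.8% of narrow ones, and the cyclic AMP response element (TGACGTCA, bound by CREB) in 1.09% of wide and 3.33% of narrow ones. The motif of NRF1, a factor of nuclear genes for mitochondrial proteins, was in 3.37% of wide and 9.18% of narrow ones. Of all shared regions outside promoters, the CTCF motif was in 1.21% of the wide (5 of 412) and 17.5% of the narrow.

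Since the centre of a wide region can be off its most accessible point, the same motifs were sought around the strongest peak of replicate 1. There the CCAAT box was in 21.7% of wide and 29.6% of narrow promoter regions, the ETS motif in 7.89% and 13.7%, and the NRF1 motif in 7.37% and 9.47%. In the central 500 bp the shares were closer, at 10.8% of wide and 11.4% of narrow promoters for NRF1, 3.14% and 4.01% for the cyclic AMP response element, 40.7% and 45.3% for CCAAT, and 16.6% and 20.5% for ETS. The distal CTCF shares at the strongest peak were 1.21% in wide and 17.6% in narrow regions. Only the GC box (GGGCGG, bound by Sp and Klf factors) changed its order among the motifs named here, being in 49.5% of wide and 55.2% of narrow promoters at the centre, but 57.9% of wide and 55.5% of narrow ones at the strongest peak. Among CpG-dense promoters alone, the central CCAAT shares were 18% in wide and 30.2% in narrow regions, and the ETS shares 7.63% and 16.8%. Per kb of the whole region, wide promoters held 1.38 CCAAT and 0.354 ETS matches, and narrow ones 1.89 and 0.728. A match is only a run of letters and not a bound site.

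Some wide promoters did hold these motifs. The 3 that differed most at the centre, counted over promoters, are each shown in a wide promoter. The examples are Trib1 (a pseudokinase) for the CCAAT box, Soga3 for ETS and Spin1 (a histone reader) for NRF1. Wider promoter regions with a match may exist. The 80 bases around each match are given, from chr15:59648136-59648215, chr10:29147048-29147127 and chr13:51100743-51100822. A strong narrow distal region with a CTCF match is given beside them from chr8:94704178-94704257. It lay 7883 bp from the nearest protein-coding start, that of Pllp (a myelin membrane protein). This region was chosen after its values were seen, and stronger ones with a match may exist. All are plus strand sequence of GRCm38.p6 from RefSeq, and capitals mark the motif.
Trib1: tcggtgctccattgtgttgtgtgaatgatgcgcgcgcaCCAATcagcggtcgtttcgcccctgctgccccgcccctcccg
Soga3: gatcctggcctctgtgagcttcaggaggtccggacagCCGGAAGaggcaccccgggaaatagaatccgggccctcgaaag
Spin1: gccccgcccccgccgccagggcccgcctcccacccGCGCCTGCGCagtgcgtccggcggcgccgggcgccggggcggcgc
Pllp: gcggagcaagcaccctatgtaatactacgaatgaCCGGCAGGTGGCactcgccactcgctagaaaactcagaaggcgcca

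The Trib1 region was 1200 bp wide with a signal of 3.44 in replicate 1 and 1.35 in replicate 2, and 5 footprints found in both. The Soga3 region (980 bp) had 2.65 and 1.45, and the Spin1 region (880 bp) 3.27 and 1.07. The narrow region near Pllp was far stronger over 200 bp, with 16.9 in replicate 1 and 4.77 in replicate 2. The Spin1 stretch was 91.2% GC.

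The 412 wide regions away from promoters lay close to a gene start more often than narrow distal ones. They lay within 5 kb of a protein-coding start in 153 cases (37.1%), against 22.4% of narrow distal regions. The shares beyond 50 kb were close, 30.8% of wide and 28.9% of narrow ones. Median distances were 13978 bp for wide and 19780 bp for narrow distal regions. The base-wise cut-rate false discovery rate was 0.001 or less over a median of 92.2% of a wide distal region in replicate 1, against 100% in narrow distal regions, and over 99.6% of wide and 100% of narrow ones in replicate 2.

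Among distal wide regions, those in exons had the highest median CpG ratio. The 81 of them had a median CpG ratio of 0.690, against 0.314 in narrow exonic regions, and 63.0% of them were CpG-dense, against 16.0% of narrow ones. The region in Pcdh17 (1858 bp) had a signal of 1.18 in replicate 1 and 0.788 in replicate 2, and lay 2049 bp from the nearest start. The region in Jun (1020 bp), a subunit of the AP-1 factor with a single exon, had 2.65 and 0.863, and that in Mex3b (1106 bp), an RNA-binding protein gene, 1.24 and 0.728. Fjx1 (1019 bp, a secreted kinase-like protein) had 1.39 and 0.6, and Stox2 (1018 bp) 1.61 and 1.01.

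The widest intronic region was in Maml3 (1420 bp), a coactivator of Notch signalling, with signals of 1.91 in replicate 1 and 0.818 in replicate 2. The widest intergenic regions were near Calcoco1 (1283 bp, 24481 bp from its start, 1.46 and 1.07) and near Gabpa (1041 bp, 15515 bp from its start, 0.831 and 0.668). The CpG-rich run at the region near Calcoco1 had 1180 bp. Only 10 distal regions reached 1000 bp.

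Wide promoters belonged to 1789 of the 20807 autosomal protein-coding genes (8.6%), which is 15.6% of the 11489 open genes, those with a shared region within 500 bp of any annotated start. Genes with a wide promoter were longer than the other open genes. Their median length was 39654 bp against 25045 bp, and 27.9% of them were over 100 kb long against 13.4%. The share of open genes with a wide promoter was 12.1% among genes under 10 kb, 12.7% at 10 to 30 kb, 14.9% at 30 to 100 kb, 25.1% at 100 to 300 kb and 36.0% at 300 kb and above. Longer genes had more annotated starts, with a median of 6 at 300 kb and above and 3 under 10 kb. By number of starts the share varied less: it was 15.1% among genes with 1 start and 16.2% among genes with 4 or more. Genes with a wide promoter had more than 1 open region at their starts in 48.1% of cases and other open genes in 24.5%. A gene was counted by the widest of its regions, so each further region gave it another chance to count as wide.

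Gene groups differed in how many of their open promoters were wide, and the 15.6% of all open genes is the background to read them against. That background moves with how regions are built: it was 8.7% with regions of replicate 2 alone, 5.74% with those of replicate 1 alone and 2% with width counted inside peaks of both libraries. Above it stood the Klf and Sp factors, zinc finger factors that bind GC-rich boxes, with 8 of 18. They were Sp1 (940 bp), Klf4 (840 bp), Klf12 (792 bp), Sp3 (780 bp), Klf10, Klf16, Klf9 and Klf5. Sp1 had signals of 5.59 in replicate 1 and 3.82 in replicate 2, with 9 footprints found in both, whereas Klf12 had 1.33 and 0.758 and none. Klf11 (280 bp), Klf13 (360 bp) and Klf15 (280 bp) were open but narrow. With regions of replicate 2 alone 4 of 18 open were wide (22.2%, against 8.7% of all open genes there), and with replicate 1 alone 3 of 18 (16.7%, against 5.74%). Inside peaks of both libraries none of the 18 was wide, against 2% of all open genes.

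Circadian clock genes had 8 wide of 21 open. The widest were Nfil3 (1220 bp), a repressor of the clock output, Rora (915 bp), a nuclear receptor that activates Arntl, and the repressors Bhlhe40 (657 bp) and Bhlhe41 (639 bp), followed by Arntl, Ciart, Per1 and Rorb. Nfil3 had 1.74 in replicate 1 and 1.19 in replicate 2, and Bhlhe40 had 2.82 and 1.24. The core genes Clock (280 bp), Cry1 (240 bp) and Cry2 (360 bp) were narrow and stronger than Nfil3 and Bhlhe40, at 4.75, 4.38 and 6 in replicate 1 and 1.96, 2.55 and 3.35 in replicate 2.

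Pan-neuronal genes had 7 wide of 19 open. These were Nefl (860 bp), a neurofilament subunit, Eno2 (841 bp), the neuronal enolase, Rbfox1 (760 bp), a splicing regulator, Stmn3 (547 bp), a tubulin-binding protein, and Elavl4, Mapt and Thy1. Their signals were modest: Nefl had 2.01 in replicate 1 and 0.885 in replicate 2, and Eno2 had 1.12 and 0.668. The narrow promoters of Gap43 (200 bp, 4.43 and 1.73), Elavl3 (267 bp, 3.43 and 1.42) and Celf4 (256 bp, 3.11 and 1.21) were higher than both. Replicate 2 alone gave 4 wide pan-neuronal genes of 20 open (20%, against 8.7% of all open genes), and replicate 1 alone gave 2 of 20 (10%, against 5.74%). Inside peaks of both there was 1 of 19.

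Splicing factor genes had 11 wide of 32 open, all between 500 and 620 bp. Among them were the heterogeneous nuclear ribonucleoprotein genes Hnrnpa1, Hnrnpa2b1, Hnrnpk, Hnrnpl, Hnrnpd and Hnrnph1, the serine and arginine rich factors Srsf1, Srsf2 and Srsf6, and Ptbp1. The Hnrnpa1 region is shared with a start of Cbx5, and the Hnrnpk region with one of Rmi1. Replicate 2 alone gave 5 wide splicing factor genes of 32 (15.6%, against 8.7% of all open genes), and replicate 1 alone gave 1 of 32 (3.12%, against 5.74%). Inside peaks of both libraries there were 0 of 32. At Hnrnpa2b1, Ptbp1 and Hnrnpk the wide part came from replicate 2, whose peaks covered 600, 580 and 580 bp, while those of replicate 1 covered 320, 220 and 220 bp. Ptbp1 was strong in both, at 6 in replicate 1 and 3.29 in replicate 2.

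Housekeeping genes had 6 wide of 24 open, among them Eef1a1 (720 bp), Ywhaz (700 bp), Vcp (640 bp), Rpl13a and Snrpd3. Replicate 1 alone gave 2 wide housekeeping genes of 25 open (8%, against 5.74% of all). Genes of the CREB pathway had 5 of 20, among them Prkacb (760 bp), a catalytic subunit of protein kinase A, and Atf2 (560 bp). For them replicate 1 alone gave 1 of 20 (5%, against 5.74%), and replicate 2 alone 5 of 19 (26.3%, against 8.7%). Inside peaks of both libraries it was 0 of 20, against 2% of all open genes. Activity-regulated genes, which neurons switch on after firing, had 6 of 31: Klf4, Egr3 (820 bp), Nrn1 (720 bp), Nr4a3 (560 bp), Fosl2 and Per1. For this list replicate 2 alone gave 2 of 31 (6.45%, against 8.7%), and replicate 1 alone 4 of 32 (12.5%, against 5.74%). Inside peaks of both libraries it was 2 of 31 (6.45%, against 2%). Arc (300 bp), Atf3 (360 bp) and Bdnf (180 bp) were narrow. The wide Egr3 promoter had 1.19 in replicate 1 and 0.743 in replicate 2, and the narrow Arc promoter had 8.02 and 2.00. Synaptic genes had 5 of 26, among them Nlgn1 (840 bp) and Nlgn2 (640 bp), the adhesion proteins of the postsynaptic side, Cplx1 (620 bp) of vesicle release, and Grin2a, an NMDA receptor subunit. The Nlgn2 region also lay by a start of Tmem256. Replicate 2 alone gave 3 of 25 open synaptic genes (12%, against 8.7%), and replicate 1 alone 3 of 31 (9.68%, against 5.74%).

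Below the 15.6% stood chromatin regulators, with 4 of 33 (Smarca2 at 1320 bp, Tet2 at 780 bp, Arid1a at 540 bp and Brd2 at 535 bp), and forebrain factors, with 2 of 19 (Zbtb20 at 960 bp and Fezf2 at 749 bp). Zbtb20, a factor of hippocampal neuron identity, had signals of 7.2 in replicate 1 and 3.89 in replicate 2. Heat shock and chaperone genes had 2 of 22 (Hspa9 at 620 bp and Hspa8 at 500 bp), and cytosolic ribosomal protein genes had 3 of 48 (Rps19 at 700 bp, Rpl30 at 580 bp and Rpl7 at 540 bp). The open ribosomal protein promoters had a median width of 280 bp and a median signal of 5.95 in replicate 1 and 2.45 in replicate 2, against 300 bp, 3.85 and 1.66 over all open genes. The ribosomal list does not hold Rpl13a, which is counted among the housekeeping genes. In these 4 lists replicate 2 alone gave 4.17% to 5.88% wide of the open genes (8.7% of all). Replicate 1 alone gave 2.08% to 8% (5.74% of all), where forebrain factors stood above the background with 2 of 25. The longer peak lists, where 23.5% of all open genes were wide, put 2 of the 4 lists above it. Chromatin regulators had 9 of 36 (25%) there and forebrain factors 7 of 25 (28%). Heat shock and chaperone genes had 4 of 24 (16.7%) and ribosomal protein genes 4 of 48 (8.33%).

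No wide promoter was found among the open genes of 5 cell class lists: 0 of 12 for excitatory hippocampal neurons, 0 of 5 for interneurons, 0 of 7 for astrocytes, 0 of 4 for the oligodendrocyte lineage and 0 of 3 for microglia. Nor was one found among 9 open small nucleolar RNA host genes and 2 open Hox genes. Over all open genes the share was 15.6%, and at that share lists this small would hold few wide genes or none. Camk2a, the kinase of excitatory neurons, was open over 320 bp (3.86 in replicate 1 and 1.72 in replicate 2) and Gfap, the astrocyte filament, over 200 bp (6.85 and 1.58). Defining genes of several classes had no shared region at a start, among them Slc17a7 and Prox1 (excitatory neurons), Gad1 and Gad2 (interneurons), Rbfox3 (neurons) and Mbp (oligodendrocytes). Other members of these lists were open: 12 of 18 excitatory, 5 of 21 interneuron and 4 of 19 oligodendrocyte genes. Of the 20 pan-neuronal genes 19 were open, all but Rbfox3. Over all autosomal protein-coding genes it was 11489 of 20807. The absence of wide promoters from the 5 cell class lists depends on the peak list. With the longer lists 23.5% of all open genes were wide. There 4 of 16 open excitatory, 2 of 10 interneuron, 6 of 17 astrocyte, 2 of 10 oligodendrocyte and 1 of 4 microglial genes were wide. Replicate 1 alone gave 1 of 17 excitatory and 1 of 18 astrocyte genes, against 5.74% of all. The numbers are small, and fewer cells of a type cannot be told apart from less accessibility per cell in these bulk libraries. Of the lists for vascular cells (19 genes) and hepatocytes (21 genes), none was open in the strict shared regions. With the longer lists 3 vascular genes and 1 hepatocyte gene were open. Replicate 1 alone gave 6 open vascular genes, and replicate 2 alone gave 1 open hepatocyte gene. None of these was wide.

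**Figure D5:**
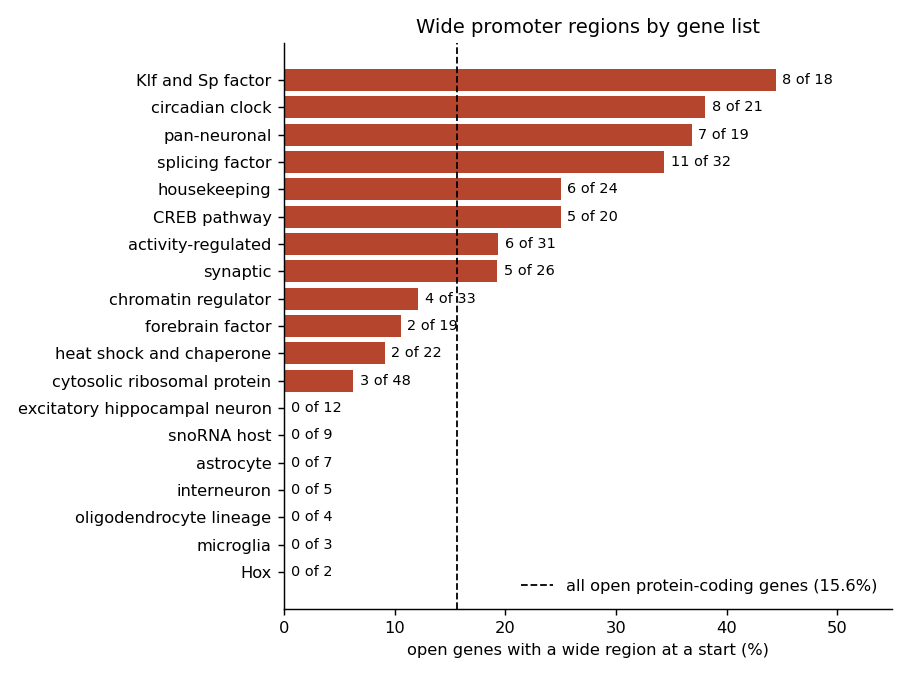
Share of the open autosomal protein-coding or host genes of each list with a wide region within 500 bp of a start (bars, percent), with the counts beside each bar. The dashed line is the 15.6% of all open protein-coding genes. Klf and Sp factors (8 of 18) stand at the top, ribosomal protein genes (3 of 48) stand below the line, and the excitatory neuron, interneuron, astrocyte, oligodendrocyte and microglia lists have none.

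Several genes carried more than 1 wide region inside them or at their starts. There were 115 genes with 2, 16 with 3 and 4 with 4. Sin3a, the scaffold of a histone deacetylase complex, had 4, of 500, 1000, 620 and 600 bp, 3 of them at starts. The widest was intronic, with 3.17 in replicate 1 and 2.82 in replicate 2. Efna5, an ephrin ligand, had 3 side by side, of 567, 500 and 1440 bp, and the first 2 of them touched without overlapping. Fgfr2 and Gm20388 also counted 4 each, but their annotated spans hold other genes: 3 of those in Fgfr2 lay at starts of Bub3, Chst15 and Eef1akmt2, and the 4 in Gm20388 at starts of Banp, Cbfa2t3, Spire2 and Afg3l1.

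The 4 wide regions of Apba2, a neuronal adaptor protein gene, stood apart by their low values. The one at its start (880 bp) had 0.779 in replicate 1 and 0.435 in replicate 2. The 3 that followed in the intron (580, 620 and 560 bp) had 0.449 each in replicate 1, and 0.225, 0.308 and 0.308 in replicate 2. Their CpG ratios were 0.152, 0.162 and 0.143, and no footprint found in both libraries lay in any of the 4.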

How the data were processed

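DNase-seq was run on 2 libraries of mouse hippocampal tissue. Per the deposited file descriptions, each library came with a shorter (strict) and a longer peak list, footprints and a base-wise cut rate false discovery rate (FDR), all on mm10. The authors' peak signal was used as deposited, with an unstated scaling. Deposited FDR values are listed up to 0.05, and every footprint carries an FDR of 0.01. Aligner and peak caller: not given in the sources used here. No read counts were used, so depth is unknown, no interval could be given and precision rests on comparing the 2 libraries.

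Strict peaks of both libraries overlapping by 1 bp or more were joined into shared regions, and autosomal ones of 500 bp or more were called wide. Peaks that touch with no gap were not joined. Signal of a region is its highest peak in each library. Starts within 500 bp came from GENCODE M21, and sequence from the RefSeq genome GRCm38.p6, the same build as mm10. GC content and 23 motifs were read in the central 200 bp, the CpG ratio in the central 1000 bp, and CpG density in the central 500 bp. A CpG-rich run is a chain of 200 bp windows (20 bp steps) with at least 50% GC and a ratio of at least 0.6. Footprints of both libraries overlap by at least 50% of the shorter.

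The members, the 21 gene lists and the tests were chosen with earlier results of these data known. Genes are named by rule: the 12 widest promoter and 8 widest distal regions, the 5 strongest by mean rank, up to 4 wide (widest) and 3 narrow (alphabetical) genes per list, 5 genes with most wide regions, and 3 regions each side of 500 bp. Other list members with wide regions are also named, and a few members are not reported here. With 1 group no comparison was tested. Python 3.11.15, numpy 2.4.6, pandas 2.3.3 and matplotlib 3.10.9 were used, and the joining of peaks was tested on simulated data.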

Additional observations from a re-analysis of the deposited data

How the results depend on the processing

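No paired analysis was possible because both libraries belong to 1 group. Among the alternative values of the main results, 48 stayed within the set limits, 43 moved and 6 reversed, and the cause was not tested. The longer peak lists gave 5010 wide regions, 64.6% at promoters, GC 59.5%, CpG ratio 0.632, a footprint in 49.7%, 1.63 footprints per kb, 2977 genes and median signals of 1.15 in replicate 1 and 0.698 in replicate 2 (0.683 in narrow regions, so the order turned). The stronger 50% of peaks gave 1191 regions, 88.5%, 0.778, 89.0%, 4.54 per kb, 1169 genes and signals of 3.12 and 1.48 (1.44 in narrow regions, turned). Measured inside peaks of both libraries, 241 regions were wide, with 89.6% at promoters, 2.97 footprints per kb, 230 genes and a replicate 2 signal of 1.01 (0.998 in narrow regions, turned). A threshold of 1000 bp gave 107 regions, 90.7%, 1.56 per kb and 100 genes, and 1 peak per library gave 716 regions, 3.06 per kb and 603 genes. Requiring 50% overlap gave 3.01 per kb.

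Leaving out 1 replicate gave 877 to 1288 wide regions, 734 to 1012 genes, 76.4% to 81.3% at promoters, CpG ratios of 0.716 to 0.738, 8.64 to 8.67 footprints per kb, counted in the library kept, and a footprint in 82.2% to 91.9%. Without replicate 1 the footprint share turned, with 91.9% of wide and 82.7% of narrow regions, and so did the replicate 2 signal, at 1.01 in wide and 0.803 in narrow regions. Footprints of either library lay in 94.1% of wide regions. Their density was 17.0 per kb with the 2 lists pooled unmerged, so a footprint found in both libraries counted in each. The promoter share was 87.5% with a 2000 bp window and 77.5% with basic transcripts, and the CpG ratio was 0.776 over 200 bp. Chosen after seeing the data, joining touching peaks gave 3.01 footprints per kb and a replicate 2 signal of 1.02 (0.998 in narrow regions, turned), and the middle of the region gave 74.1% at promoters. In a 500 bp window the GC box was in 78.0% of wide and 72.7% of narrow promoters and the YY1 motif in 7.03% and 6.89%, both turned, and at the strongest peak (also chosen after seeing the data) the GC box was in 57.9% and 55.5%. The order of wide and narrow regions in promoter share, CpG ratio and footprints per kb held under each alternative run.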

Other observations

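The share of shared regions that were wide varied little by chromosome, between 4.56% on chromosome 11 and 7.36% on chromosome 16. Peaks within a library also touch with no gap, 464 in replicate 1 and 542 in replicate 2, and 73 wide regions (3.38%) touched another shared region, against 0.951% of narrow ones. Peak widths were whole multiples of 20 bp in 64.0% of peaks of replicate 1 and 51.8% of peaks of replicate 2.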
